A study of Mus musculus with 6 samples.

Results

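The MHC class II antigen presentation genes are 10 mouse genes taken by symbol, without use of any measured value: Cd74, H2-Aa, H2-Ab1, H2-Eb1, H2-DMa, H2-DMb1, H2-DMb2, H2-Oa, H2-Ob and Ciita. They were 10 of the 22099 genes in the table, and each had a single RefSeq row. The 6 libraries were polyadenylated RNA of C57BL/6 bone marrow cultures after 14 days in vitro, all transduced at day 0 with a retrovirus that carries BCR-ABL p185 and a yellow fluorescent protein. The groups were wild type (labelled wt), homozygous for the Ikaros_ZnF1-/- allele (the ZnF1 mutant) and homozygous for the Ikaros_ZnF4-/- allele (the ZnF4 mutant), with 2 biological replicates each. Ikaros is a transcription factor of lymphoid cells that binds DNA through zinc fingers, of which one is altered in each mutant. Whole marrow was transduced, and the labels name the cells as transformed pro-B acute lymphoblastic leukaemia cells without stating a sort, so other marrow cells could be present in the cultures.

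Class II molecules display peptides from the endosomal pathway to CD4 T cells. An alpha and a beta chain (H2-Aa with H2-Ab1 for I-A, H2-Ea with H2-Eb1 for I-E) assemble in the endoplasmic reticulum around the invariant chain Cd74, proteases then cut Cd74 down to a short peptide, and H2-DM exchanges that peptide for others while H2-DO restrains H2-DM. Transcription of the family is governed by the coactivator Ciita, which is recruited by the RFX and NF-Y factors bound to the X and Y boxes of the promoters. Dendritic cells, macrophages and mature B cells are the usual sites of expression, and B cell progenitors of the mouse carry little class II on their surface. The C57BL/6 strain does not express the alpha chain H2-Ea and so has no I-E at the surface, and H2-Ea-ps was listed at 0 in all 6 libraries.

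The promoters were searched for core letters of the boxes just named, and the sequences are given before the levels. The RefSeq promoter table, on build GRCm38.p6, matched 7 of the 10 genes; Cd74, H2-Ab1 and Ciita are named only. H2-DMa, which has 2 annotated starts, is not printed because neither of its 150-base stretches holds a core. Each line holds the 150 bases directly upstream of the annotated start, written 5′ to 3′ on the strand of the gene. Capitals mark the Y box core ATTGG (or CCAAT where it lies on the other strand) and the X box core AGCAAC.
H2-Eb1 (chr17:34305717-34305866, plus strand): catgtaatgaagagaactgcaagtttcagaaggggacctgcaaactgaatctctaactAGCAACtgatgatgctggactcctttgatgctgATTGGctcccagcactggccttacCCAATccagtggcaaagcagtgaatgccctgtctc
H2-Oa (chr17:34092229-34092378, plus strand): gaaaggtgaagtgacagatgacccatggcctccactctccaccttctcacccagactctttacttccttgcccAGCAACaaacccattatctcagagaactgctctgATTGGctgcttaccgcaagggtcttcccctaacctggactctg
H2-Ob (chr17:34238755-34238904, plus strand): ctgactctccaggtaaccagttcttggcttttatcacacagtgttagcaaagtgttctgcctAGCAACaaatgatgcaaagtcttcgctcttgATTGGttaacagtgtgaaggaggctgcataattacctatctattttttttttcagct
H2-Aa (chr17:34287824-34287973, minus strand): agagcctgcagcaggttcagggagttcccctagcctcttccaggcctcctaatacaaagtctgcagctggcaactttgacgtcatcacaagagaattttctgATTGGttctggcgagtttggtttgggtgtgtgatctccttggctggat
H2-DMb1 (chr17:34153041-34153190, plus strand): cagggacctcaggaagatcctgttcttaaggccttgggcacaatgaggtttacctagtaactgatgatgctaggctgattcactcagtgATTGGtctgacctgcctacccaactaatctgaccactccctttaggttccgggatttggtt
H2-DMb2 (chr17:34145099-34145248, plus strand): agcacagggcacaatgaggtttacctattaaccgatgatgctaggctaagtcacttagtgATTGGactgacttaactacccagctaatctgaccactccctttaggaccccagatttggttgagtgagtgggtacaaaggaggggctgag

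Both cores were searched on both strands in windows from 250 bases before to 50 bases after each start, in 32851 windows. ATTGG was present in 7 of the 8 windows of the 7 genes (H2-DMa has 2 windows) and in 37.4% of all windows. AGCAAC was present in 3 of the 8 windows, those of H2-Eb1, H2-Oa and H2-Ob, and in 14.8% of all windows. In these 3 genes AGCAAC lay upstream of ATTGG on the same strand, and their first bases were 33 bases apart in H2-Eb1, 34 in H2-Oa and 31 in H2-Ob. This order with starts 15 to 35 bases apart was found in 0.35% of all windows. The longer core TGATTGG, which contains ATTGG and was chosen after the promoters had been seen, was in 6 of the 8 windows and in 7.82% of all windows. A match describes the letters in the window and was not tested as a binding site. Only exact letters were searched, so a box that differs from a core in any base was not counted. The map of motif positions shows the same alignment without letters.

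**Figure D1:**
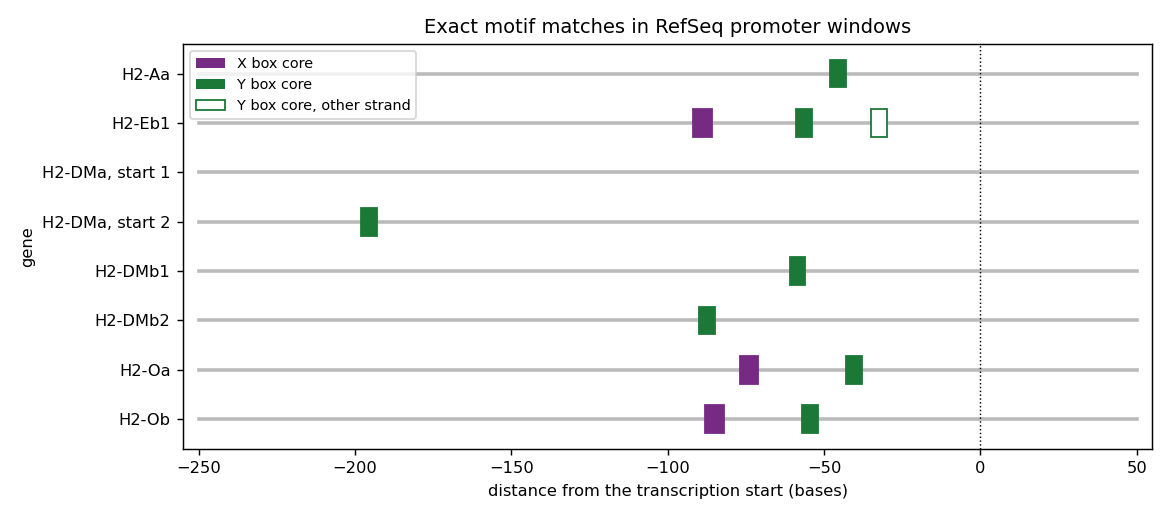
Exact matches of the X box core and the Y box core by distance from the annotated start (x axis, bases) in the RefSeq promoter windows of 7 class II genes (rows), with an open box for a match on the other strand. In H2-Eb1, H2-Oa and H2-Ob an X box core starts 31 to 34 bases upstream of a Y box core on the same strand.

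The labelled cell type was checked against markers. All 9 pro-B and B lineage markers were at or above 1 RPKM in every library; Igll1, a surrogate light chain component, ranged from 621.6 to 1201.4 RPKM. RPKM scales reads to transcript length and to the reads of the library, so levels can be compared between genes. Of the T cell markers, Cd3e, Cd3g and Cd8a were at 0 in all libraries. Cd4, also found on some myeloid cells, was at 0.1 RPKM in both wt libraries, 1.7 and 2 in the ZnF1 mutant and 0 in both of the ZnF4 mutant (adjusted p 0.0123 in limma between the mutants). Of the other cell types, 16 macrophage and monocyte markers summed to 304.2 and 361.2 RPKM in wt, 879.4 and 978.1 in the ZnF1 mutant, and 331 and 353.5 in the ZnF4 mutant. The 7 granulocyte markers summed to 502.8 RPKM in wt replicate 1 and 1530.4 in ZnF1 mutant replicate 2, against 0.5 to 51.4 in the other 4 libraries; these 2 libraries stand apart, and the differences without them are given after the counts of called genes. The number of reads per library is unknown, and the sum of RPKM was 287007 to 345766. Because the libraries are bulk cultures, fewer cells of a type and less RNA per cell cannot be told apart.

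Cd74 dominated the family. It was the highest of the 10 genes in all 6 libraries, H2-Ab1 was second in all 6, and Ciita was lowest in all 6. Cd74 made up 68.2% and 63.5% of the summed RPKM of the 10 genes in wt, 91.4% and 84.1% in the ZnF1 mutant, and 47.4% and 47.2% in the ZnF4 mutant. The plot of levels by library shows this order.

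**Figure D2:**
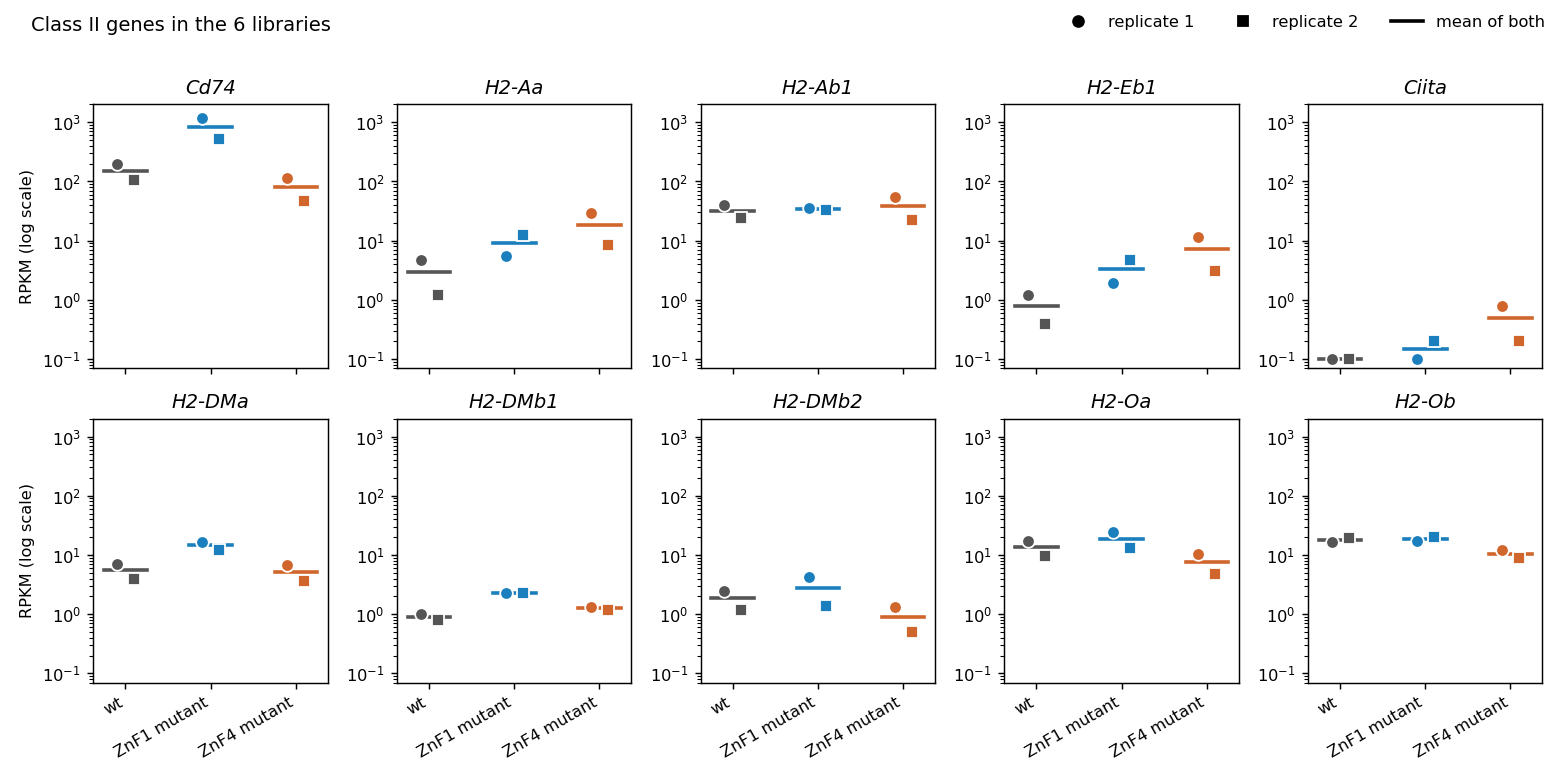
RPKM (y axis, log scale) of the 10 class II genes, 1 panel per gene, by group (x axis), with a circle for replicate 1, a square for replicate 2 and a line at the mean of both. Cd74 runs from 47.2 to 1160.8 RPKM, and Ciita stays at or below 0.8 RPKM in every library.

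Cd74, the invariant chain that holds class II chains in their unloaded form and guides them to endosomes, was at 193.8 and 104.9 RPKM in wt replicates 1 and 2. The ZnF1 mutant libraries held 1160.8 and 524.8 RPKM, and those of the ZnF4 mutant 115.6 and 47.2 RPKM. Both ZnF1 mutant libraries lay above the other 4 libraries, and the wt and ZnF4 mutant values overlapped. At matched replicate numbers the ZnF1 mutant was 5.99 and 5 times the wt level, and the ZnF4 mutant was 0.597 and 0.45 of it. Among all genes, Cd74 held ranks 13 and 23 in the ZnF1 mutant libraries. The wt ranks were 207 and 453, and the ZnF4 mutant ranks 480 and 1545.

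In the fit of limma across all 11345 tested genes, Cd74 differed between the mutants, with a log2 difference of -3.38 (SE 0.61) in log2(RPKM + 1) for ZnF4 mutant minus ZnF1 mutant and an adjusted p of 0.0442. Blocking on the replicate number gave an adjusted p of 0.00068. The ZnF1 mutant was 2.44 (SE 0.61) above wt on that scale, with an adjusted p of 0.178 in limma and of 0.0041 with the replicate block, so the call rests on the block. That call in turn needs wt replicate 2, without which the adjusted p with the block was 0.0565. The ZnF4 mutant was 0.94 below wt (log2 difference -0.94, adjusted p 0.806 in limma, 0.00777 with the block, 0.0817 with the block without wt replicate 2 and 0.068 without ZnF4 mutant replicate 2). The difference between the mutants passed no test in limma when the 2 libraries rich in granulocyte markers were left out (log2 difference -3.95, adjusted p 0.206 with 1 residual degree of freedom) or when any single library was left out (-4.02 to -2.74, adjusted p up to 0.216).

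Markers of macrophages rose beside Cd74 in the ZnF1 mutant with the block, in 12 of the 14 tested genes, against 10.4% of all genes higher. In limma without the block 0 passed and 13 had an unadjusted p below 0.05, and with the block but without wt replicate 2 no gene of the table passed. Of all 11345 tested genes, 1281 had an unadjusted p below 0.05 in limma for ZnF1 mutant against wt. Between the mutants, 6 of the 14 macrophage markers fell in the ZnF4 mutant in limma, against 3.75% of all genes lower. With the block 11 of the 14 fell, against 19.2% of all genes. In the ZnF1 mutant the summed level of the macrophage markers was 2.89 and 2.71 times that of wt at matched numbers, against 5.99 and 5 times for Cd74. Cd74 divided by Cd68, a lysosomal protein of macrophages, was 3.51 and 2.33 in wt, 7.19 and 3.72 in the ZnF1 mutant and 1.97 and 0.99 in the ZnF4 mutant. The dendritic cell markers summed to 13.2 and 7 RPKM in wt and 37.8 and 27.2 in the ZnF1 mutant, with Xcr1 and Cd209a at 0 in all libraries, and Zbtb46 at 0.2 RPKM or less. Of the 4 tested dendritic cell markers, 3 rose with the block, against 10.4% of all genes higher, and 0 in limma without it. Ccr7, a chemokine receptor, was at 5.4 and 3.7 RPKM in wt and 16 and 13.8 in the ZnF1 mutant (adjusted p 0.102 in limma, 0.00522 with the block). Fscn1 was at 3.4 and 1.8 RPKM in wt and 16.4 and 4 in the ZnF1 mutant (adjusted p 0.5985 in limma, 0.0355 with the block). Batf3 was at 0.3 and 0.1 RPKM in wt and 1.1 and 1 in the ZnF1 mutant (adjusted p 0.135 in limma, 0.0431 with the block). Itgax overlapped, at 3.5 and 0.8 RPKM in wt and 2.3 and 6.7 in the ZnF1 mutant. The part of macrophages and dendritic cells in the level of Cd74 was not tested. Cd79a, a B cell receptor subunit, gave a ratio of Cd74 to Cd79a of 0.448 and 0.471 in wt, 2.39 and 1.7 in the ZnF1 mutant and 0.291 and 0.249 in the ZnF4 mutant.

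The chains that bind peptide were at lower levels than Cd74 in each library. H2-Ab1, the beta chain of I-A, was at 40.1 and 24.1 RPKM in wt, 35.9 and 32.4 in the ZnF1 mutant and 55.5 and 22 in the ZnF4 mutant. The 3 groups overlapped, and no comparison passed the test (log2 differences of 0.13, 0.17 and 0.04; adjusted p in limma 1, 1 and 0.985, and 0.724 or more with the block). H2-Aa, the alpha chain of I-A, was at 4.7 and 1.2 RPKM in wt, 5.5 and 12.6 in the ZnF1 mutant and 28.9 and 8.4 in the ZnF4 mutant. Its lowest values were those of wt, and both mutants lay above wt without overlap, while the 2 mutants overlapped each other.

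H2-Eb1, the I-E beta chain, which has no expressed partner in this strain, was at 1.2 and 0.4 RPKM in wt, 1.9 and 4.8 in the ZnF1 mutant and 11.5 and 3.1 in the ZnF4 mutant. H2-Aa was 2.51 to 3.92 times H2-Eb1 in all 6 libraries. The ZnF4 mutant was 2.24 (H2-Aa) and 2.03 (H2-Eb1) above wt on the log2 scale, with adjusted p of 0.301 and 0.255 in limma, and 0.0904 and 0.0855 with the replicate block. The ZnF1 mutant was 1.41 and 1.22 above wt, with adjusted p of 0.699 and 0.666 in limma, and 0.236 and 0.241 with the block. With all 6 libraries no comparison of these genes passed the threshold, although neither mutant overlapped wt. Leaving out 1 library gave differences between ZnF4 mutant and wt of 1.41 to 3.08 for H2-Aa and 1.22 to 2.83 for H2-Eb1 in limma. With the block and without either ZnF1 mutant library, both genes passed in the ZnF4 mutant against wt (adjusted p 0.00736 and 0.00609 for H2-Aa, 0.0285 and 0.0251 for H2-Eb1). H2-Aa also passed in the ZnF1 mutant against wt without ZnF1 mutant replicate 1 (log2 difference 2.7, adjusted p 0.0472 with the block).

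H2-Aa also varied between replicates. In wt and the ZnF4 mutant replicate 1 was 3.92 and 3.44 times replicate 2, and in the ZnF1 mutant it was 0.437 times. Replicate 2 of the ZnF1 mutant was the library with the highest sum of granulocyte markers. The macrophage markers of the ZnF4 mutant libraries summed to 331 and 353.5 RPKM, within the wt range of 304.2 to 361.2. H2-Aa divided by Cd68 was 0.0851 and 0.0266 in wt, 0.0341 and 0.0894 in the ZnF1 mutant, and 0.492 and 0.176 in the ZnF4 mutant. Of the mature B cell markers, Cd22 was at 5.7 and 6.3 RPKM in wt, 2.1 and 3.6 in the ZnF1 mutant and 18 and 11.4 in the ZnF4 mutant. Cr2 was at 0.2 and 0.3 RPKM in wt, 0.2 and 0.5 in the ZnF1 mutant and 1 and 1.1 in the ZnF4 mutant. Its adjusted p for ZnF4 mutant against wt was 0.129 in limma and 0.0287 with the block. Faim3, which was not tested, was at 0.4 and 0.3 RPKM in wt, 0.3 and 0.4 in the ZnF1 mutant and 3.4 and 0.7 in the ZnF4 mutant. Ms4a1 was at 0.6 to 2.5 RPKM with overlapping groups. The more abundant Cd37 and Tnfrsf13c had log2 differences of -0.04 and -0.3 between ZnF4 mutant and wt (adjusted p 1 and 0.968 in limma). The part of macrophages, mature B cells or other cells in the levels of H2-Aa and H2-Eb1 was not tested.

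**Figure D3:**
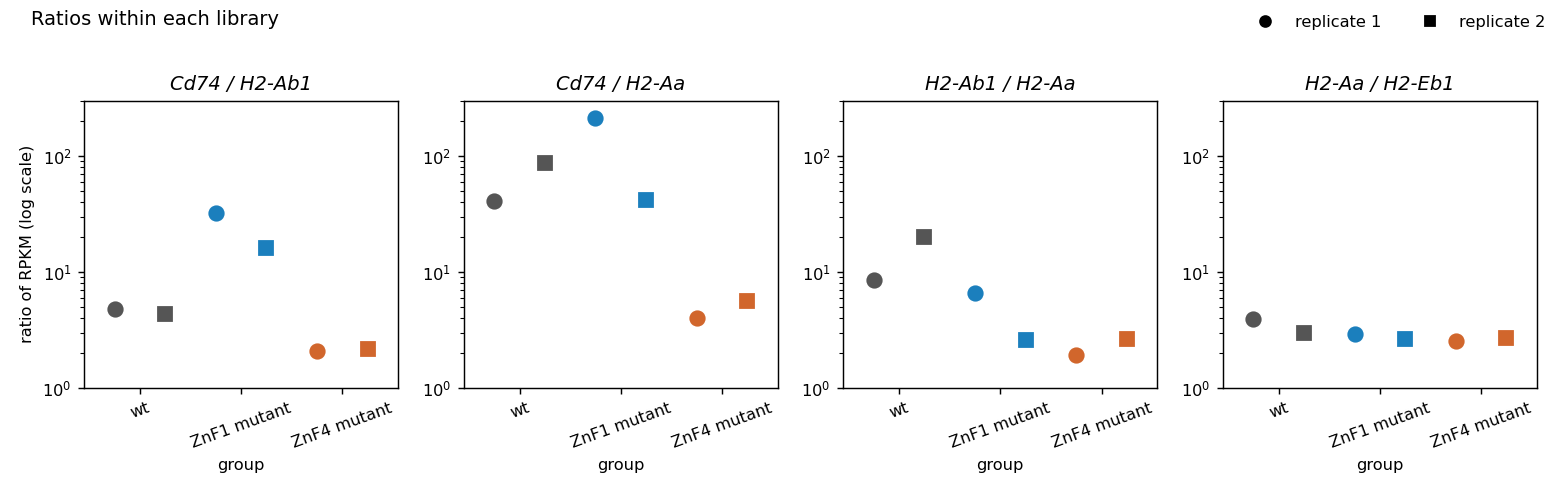
Ratios of RPKM between class II genes (y axis, log scale) in each library by group (x axis), 1 panel per ratio, with a circle for replicate 1 and a square for replicate 2. Cd74 over H2-Ab1 is 4.35 to 4.83 in wt, 16.2 to 32.3 in the ZnF1 mutant and 2.08 to 2.15 in the ZnF4 mutant, whereas H2-Aa over H2-Eb1 stays between 2.51 and 3.92.

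Cd74 was 4.83 and 4.35 times H2-Ab1 in wt, 32.3 and 16.2 times in the ZnF1 mutant, and 2.08 and 2.15 times in the ZnF4 mutant. These ratios did not overlap between the 3 groups. H2-Ab1 was 8.53 and 20.1 times H2-Aa in wt, 6.53 and 2.57 times in the ZnF1 mutant, and 1.92 and 2.62 times in the ZnF4 mutant, so the alpha and beta chain transcripts of I-A were at unlike levels in every library.

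The peptide exchange chaperone H2-DM is a heterodimer of H2-DMa with a beta chain from H2-DMb1 or H2-DMb2. H2-DMa was at 7.1 and 3.9 RPKM in wt, 16.8 and 12.3 in the ZnF1 mutant and 6.7 and 3.7 in the ZnF4 mutant. The ZnF1 mutant libraries lay above the other 4 libraries, while wt and ZnF4 mutant overlapped. H2-DMa was 1.29 (SE 0.36) above wt in the ZnF1 mutant, with an adjusted p of 0.23 in limma and of 0.006 with the replicate block (0.0656 with the block without wt replicate 2). It was 1.35 lower in the ZnF4 mutant than in the ZnF1 mutant (adjusted p 0.115 in limma, 0.00176 with the block), and between ZnF4 mutant and wt the log2 difference was -0.07 (adjusted p 1 in limma, 0.725 with the block).

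H2-DMb1 was at 1 and 0.8 RPKM in wt, 2.3 in both ZnF1 mutant libraries and 1.3 and 1.2 in the ZnF4 mutant. The 3 groups did not overlap. The ZnF1 mutant was 0.8 (SE 0.14) above wt, with an adjusted p of 0.102 in limma and 0.0158 with the block. That call was lost in the block fits without either wt library or either ZnF1 mutant library (adjusted p 0.0661 to 0.131). The ZnF4 mutant was 0.55 below the ZnF1 mutant (log2 difference -0.55, adjusted p 0.104 in limma, 0.0184 with the block), a call lost with the block without ZnF1 mutant replicate 2 or either ZnF4 mutant library (0.0685 to 0.118). H2-DMb2 was at 2.5 and 1.2 RPKM in wt, 4.2 and 1.4 in the ZnF1 mutant, and 1.3 and 0.5 in the ZnF4 mutant. Both ZnF4 mutant libraries lay below both of the ZnF1 mutant, and only this difference passed with the block (log2 difference -0.93, adjusted p 0.378 in limma, 0.0125 with the block, and 0.0816 and 0.0529 without ZnF4 mutant replicate 1 or 2).

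H2-DMb1 and H2-DMb2 are near copies: their longest transcripts were 94.6% identical over 1219 aligned bases in GENCODE M21, and 33.2% of the 36-base words of H2-DMb1 also occurred in H2-DMb2. The sources used here do not give how the authors counted reads that match both, so the split between these genes is uncertain. H2-DMa was 1.95 to 3.32 times the sum of H2-DMb1 and H2-DMb2 in the 6 libraries.

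H2-Oa and H2-Ob encode H2-DO, which B cells and some dendritic cells use to restrain H2-DM. H2-Oa was at 17.4 and 9.5 RPKM in wt, 24.6 and 12.9 in the ZnF1 mutant, and 10.3 and 4.8 in the ZnF4 mutant. Replicate 1 was higher than replicate 2 in each group, by 1.83, 1.91 and 2.15 times, so the values of the ZnF4 mutant overlapped those of wt but lay below those of the ZnF1 mutant. At matched numbers the ZnF4 mutant was at 0.592 and 0.505 of wt, and the ZnF1 mutant at 1.41 and 1.36 times wt. The 3 differences passed the test only with the replicate block (0.44, -0.78 and -1.22 for ZnF1 mutant minus wt, ZnF4 mutant minus wt and ZnF4 mutant minus ZnF1 mutant; adjusted p 0.0272, 0.0045 and 0.0012 with the block, and 1, 0.786 and 0.264 in limma without it). With the block and any 1 library left out, the first of these was not called in any of 6 fits (adjusted p 0.0548 to 0.268), the second was lost without wt replicate 2 (0.0743), and the last was called in all 6.

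H2-Ob was at 16.3 and 19.2 RPKM in wt, 17.5 and 20.2 in the ZnF1 mutant, and 12 and 8.8 in the ZnF4 mutant. Both ZnF4 mutant libraries lay below the other 4 libraries. The ZnF4 mutant was 0.73 below wt (log2 difference -0.73, adjusted p 0.207 in limma, 0.0508 with the block) and 0.81 below the ZnF1 mutant (log2 difference -0.81, adjusted p 0.0998 in limma, 0.0223 with the block). The second call was lost with the block without either ZnF1 mutant library or ZnF4 mutant replicate 2 (0.0609 to 0.124). The ZnF1 mutant and wt differed by 0.08 (adjusted p 1 in limma, 0.784 with the block), and the sign of that difference depends on which library is left out (-0.03 without wt replicate 1, -0.01 without ZnF1 mutant replicate 2, 0.2 without wt replicate 2).

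Ciita, the coactivator that controls the family, was at 0.1 RPKM in both wt libraries, 0.1 and 0.2 in the ZnF1 mutant, and 0.8 and 0.2 in the ZnF4 mutant. No library reached 1 RPKM, so Ciita was not tested, and 9 of the 10 genes entered the fit. The values rest on the 0.1 step of the table, and the 0.8 of ZnF4 mutant replicate 1 was the only value above 0.2. In that library H2-Aa, H2-Eb1 and H2-Ab1 were also at their highest. Of the transcription factors that recruit Ciita, Rfx5 was at 8.5 to 11.1 RPKM and Nfya at 36.8 to 47.8. In limma 0 of the 7 tested genes passed in any comparison, with 0 at an unadjusted p below 0.05. Of all 11345 genes, 1281 (ZnF1 mutant against wt), 1329 (ZnF4 mutant against wt) and 2195 (between the mutants) had an unadjusted p below 0.05. The shares of all genes called in limma were 0% (ZnF1 mutant against wt), 2.72% (ZnF4 mutant against wt) and 5.37% (between the mutants). With the block, Nfya was 0.27 higher in the ZnF4 mutant than in the ZnF1 mutant (adjusted p 0.0312), against 15.9% of all genes higher.

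**Figure D4:**
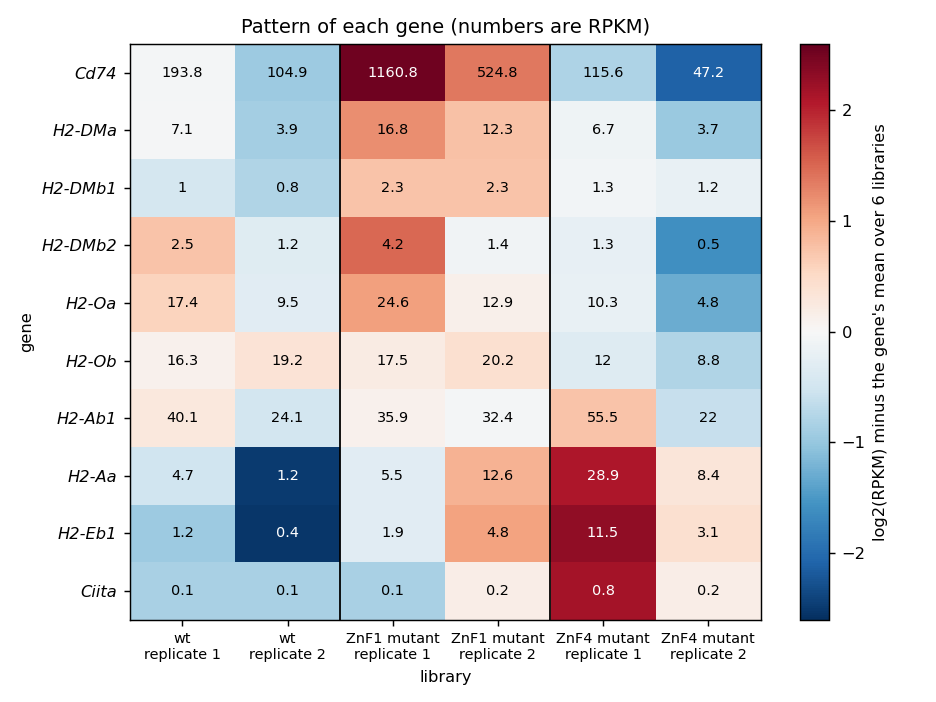
Heat map of the 10 genes (rows) in the 6 libraries (columns), coloured by log2(RPKM) minus the mean of the gene over the libraries, with the RPKM printed in each cell. Cd74, H2-DMa and H2-DMb1 are highest in the ZnF1 mutant libraries, and H2-Aa, H2-Eb1 and Ciita are highest in ZnF4 mutant replicate 1.

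All 9 fitted differences between the ZnF1 mutant and wt were above 0, against 5398 above and 5934 below among all 11345 genes. Those of H2-Ab1, H2-DMb2 and H2-Ob changed sign when certain single libraries were left out. In the fit of limma 0 of the 9 tested genes passed, against 0% of all 11345 genes; 3 of the 9 had an unadjusted p below 0.05, as did 1281 of all genes. With the replicate block 4 genes rose (Cd74, H2-DMa, H2-DMb1 and H2-Oa) and 0 fell, against 10.4% of all genes higher and 2.88% lower. Without wt replicate 2 the block gave 0 calls among all 11297 genes then tested, so every call of this comparison with the block needs that library. The groups did not overlap for 5 genes, all higher in the ZnF1 mutant (Cd74, H2-Aa, H2-Eb1, H2-DMa and H2-DMb1), against 18.3% of all genes higher and 12.7% lower. The median log2 difference of the 9 genes was 0.8, and that of all genes was -0.01.

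Between the ZnF4 mutant and wt, 4 of the 9 fitted differences were above 0 and 5 below, against 6462 above and 4861 below among all genes. Limma gave 0 calls among the 9 genes, against 2.72% of all genes. Of the 9 genes, 3 had an unadjusted p below 0.05, as did 1329 of all 11345 genes. With the block 2 genes fell (Cd74 and H2-Oa) and 0 rose, against 7.92% of all genes lower and 8.02% higher. Without wt replicate 2 the block gave 0 calls among the 9 genes and 404 among 11297. Groups did not overlap for H2-Aa, H2-Eb1 and H2-DMb1, which were higher (17.8% of all genes), and for H2-Ob, which was lower (13.8% of all genes). The median was -0.07, against 0.04 for all genes.

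Between the mutants, 1 of the 9 genes fell in the ZnF4 mutant in limma, Cd74, against 3.75% of all genes lower and 5.37% called in either direction. With the block 6 genes fell (Cd74, H2-DMa, H2-DMb1, H2-DMb2, H2-Oa and H2-Ob), against 19.2% of all genes lower, and 0 rose, against 15.9%. The same 6 did not overlap between the groups (21.8% of all genes lower, 21.7% higher). The median was -0.81, against 0.04 for all genes. The 3 comparisons share libraries, so their values are given side by side and are not independent.

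Without wt replicate 1 and ZnF1 mutant replicate 2, the 2 libraries rich in granulocyte markers, limma called 0 genes of the table in each comparison, with 1 library left in wt and in the ZnF1 mutant. The log2 differences of ZnF1 mutant minus wt were then 3.46 for Cd74, 1.86 for H2-DMa, 1.24 for H2-DMb2 and 1.29 for H2-Oa, in place of 2.44, 1.29, 0.35 and 0.44. Those of ZnF4 mutant minus wt were -0.5 for Cd74, -0.38 for H2-Oa, 2.93 for H2-Aa and 2.35 for H2-Eb1, in place of -0.94, -0.78, 2.24 and 2.03. Between the mutants H2-DMb2 was at -1.49 and H2-Oa at -1.66, in place of -0.93 and -1.22.

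**Figure D5:**
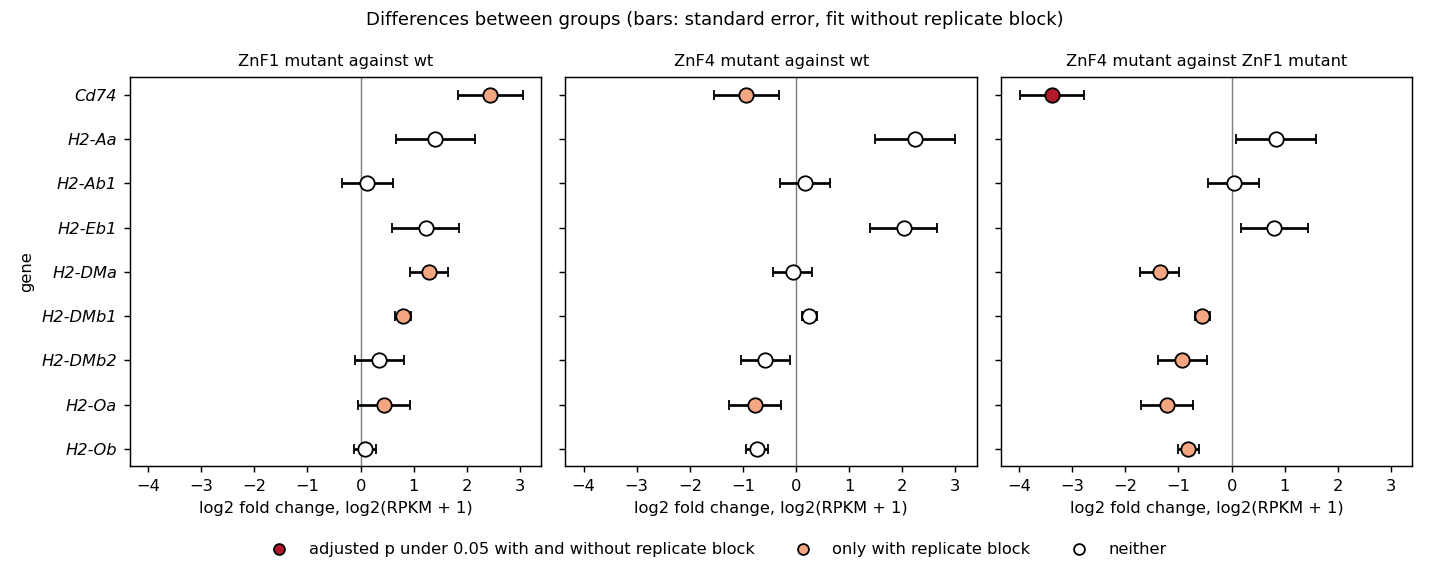
Log2 differences in RPKM + 1 (x axis) for the 9 tested class II genes (y axis) in the 3 comparisons (panels), with bars for the SE of the limma fit without the replicate block and fill colours for calls with and without the block. Cd74, at -3.38 in the ZnF4 mutant against the ZnF1 mutant, is the single gene called both ways, and 4, 2 and 6 genes are called with the block.

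Of the 10 genes, 8 lie in one cluster of the reference order on chromosome 17: H2-Oa, Brd2, H2-DMa, H2-DMb2, H2-DMb1, Psmb9, Tap1, Psmb8, Tap2, H2-Ob, H2-Ab1, H2-Aa, H2-Eb1 and H2-Eb2. Of the neighbours H2-Ob and H2-Ab1, the log2 differences of ZnF4 mutant minus wt were -0.73 and 0.17. H2-Eb2, a class II beta chain gene beside H2-Eb1, was at 1 and 1.4 RPKM in wt, 1.3 and 1.2 in the ZnF1 mutant, and 0.3 in both ZnF4 mutant libraries. It was 0.75 lower in the ZnF4 mutant than in wt (log2 difference -0.75, adjusted p 0.0937 in limma, 0.025 with the block), where H2-Eb1 was at a higher level.

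Ifngr1, the ligand-binding chain of the receptor for interferon gamma, which induces Ciita, fell in the ZnF4 mutant. It was at 85.3 and 82.8 RPKM in wt, 150.6 and 129.5 in the ZnF1 mutant, and 24.9 and 28.8 in the ZnF4 mutant, with no overlap between groups. It was 1.61 (SE 0.16) lower in the ZnF4 mutant than in wt (log2 difference -1.61, adjusted p 0.0173 in limma), a call that ended when any 1 library was left out (adjusted p 0.05 to 0.183). It was 2.34 lower than in the ZnF1 mutant (log2 difference -2.34, adjusted p 0.00972, and 0.0601 to 0.122 without either ZnF1 mutant or either ZnF4 mutant library), and in the ZnF1 mutant 0.73 above wt (adjusted p 0.149, and 0.0216 with the block). Ifngr2, the other chain, was -0.32 in the ZnF4 mutant against wt (adjusted p 0.962 in limma, 0.0989 with the block). It was 0.93 lower in the ZnF4 mutant than in the ZnF1 mutant (log2 difference -0.93, adjusted p 0.139 in limma, 0.00372 with the block). Of the 6 interferon gamma genes, 2 rose with the block in the ZnF1 mutant against wt (10.4% of all genes), and both calls needed wt replicate 2. In the ZnF4 mutant 1 fell against wt (7.92%) and 4 fell against the ZnF1 mutant (19.2%). The list medians were 0.16, -0.31 and -0.43.

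Endosomal proteases prepare peptides and cut Cd74. The 10 genes of this list, which also holds the protease inhibitor Cst3, summed to 906.2 and 698.3 RPKM in wt, 1843.6 and 1618.2 in the ZnF1 mutant, and 1000.2 and 898.9 in the ZnF4 mutant. Of these, 0 passed in limma for ZnF1 mutant against wt, and 9 of 10 had an unadjusted p below 0.05, as did 1281 of all 11345 genes. With the block 9 of 10 rose (median 1.09, against -0.01 for all genes), against 10.4% of all genes. All 9 calls needed wt replicate 2 (without it, adjusted p 0.0578 for Ctss and 0.0662 for Ctsb). Ctss, the protease that trims Cd74 in B cells and dendritic cells, was at 65.4 and 65.1 RPKM in wt, 148.7 and 182.7 in the ZnF1 mutant, and 67.6 and 85.8 in the ZnF4 mutant. It fell by 1.1 from the ZnF1 mutant to the ZnF4 mutant (log2 difference -1.1, adjusted p 0.0426 in limma), as did Ctsb by 1.22 (adjusted p 0.0493). Without any 1 library the adjusted p was 0.0822 to 0.23 for Ctss and 0.0535 to 0.276 for Ctsb. Ctsl, another protease of Cd74, was at 66.8 and 49.5 RPKM in wt, 179.3 and 172.3 in the ZnF1 mutant, and 57.6 and 84.4 in the ZnF4 mutant, and its fall of 1.32 had an adjusted p of 0.0513 in limma and 0.0128 with the block. For ZnF4 mutant against wt, 0 of the 10 genes passed in limma and 1, Cst3, rose with the block, against 8.02% of all genes higher. The list median was 0.25. Cst3 was at 130.3 and 120.4 RPKM in wt, 220.5 and 196.9 in the ZnF1 mutant and 224.8 and 192.9 in the ZnF4 mutant (adjusted p against wt 0.13 in limma, 0.00483 with the block). The macrophage markers given above also rose in the ZnF1 mutant, but unlike Cst3 their sum in the ZnF4 mutant was within the wt range. The part of macrophages was not tested.

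Genes of class II turnover and costimulation were at low levels. Marchf1, a ubiquitin ligase that removes class II from the surface, was at 0.5 and 0.6 RPKM in wt, 1.7 and 3.2 in the ZnF1 mutant, and 0.8 and 1.2 in the ZnF4 mutant, with no overlap between groups. It was 1.12 above wt in the ZnF1 mutant (adjusted p 0.15 in limma, 0.018 with the block). Marchf8 fell by 1 from the ZnF1 mutant to the ZnF4 mutant (log2 difference -1, adjusted p 0.0288), and against wt its difference was -0.57 (adjusted p 0.167 in limma, 0.0366 with the block). Cd86, a costimulatory ligand, was at 0.2 and 0.5 RPKM in wt, 1.8 and 2.1 in the ZnF1 mutant and 0.1 and 0.3 in the ZnF4 mutant. It fell by 1.3 from the ZnF1 mutant to the ZnF4 mutant (adjusted p 0.0273 in limma), and Cd80, its relative, fell by 1.02 (adjusted p 0.0295). Cd44, a coreceptor of Cd74 as a receptor of the cytokine MIF, was at 35.3 and 30.8 RPKM in wt, 58.4 and 53.2 in the ZnF1 mutant, and 26.4 and 24.7 in the ZnF4 mutant, and fell by 1.1 from the ZnF1 mutant to the ZnF4 mutant (adjusted p 0.0269). In the ZnF1 mutant against wt the adjusted p of Cd86, Cd80 and Cd44 were 0.101, 0.102 and 0.127 in limma and 0.0103, 0.0168 and 0.00738 with the block, calls that needed wt replicate 2. Cd44 in the ZnF4 mutant against wt had a difference of -0.36 (adjusted p 0.494 in limma, 0.0298 with the block). Mif went the other way between the mutants. It was at 37.1 and 10.1 RPKM in wt, 32.7 and 6.9 in the ZnF1 mutant and 45.9 and 17.1 in the ZnF4 mutant. Its log2 difference between the mutants was 0.84 (adjusted p 0.752 in limma, 0.0208 with the block). Of the 3 tested Cd74 receptor partners, 1 rose and 1 fell between the mutants with the block, against 15.9% and 19.2% of all genes. Leaving out any 1 library ended the limma calls of Marchf8 and Cd44 and, where it could be tested, of Cd80. The call of Cd86 ended without either ZnF4 mutant library, and neither Cd80 nor Cd86 could be tested without a ZnF1 mutant library.

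Genes with a pattern like that of Cd74 over the 6 libraries, by Pearson correlation of log2(RPKM + 1), were Trp53inp2 (0.9985), Gpr84 (0.9972), Snx29 (0.9953), Mir5107 (0.9949) and Itm2b (0.9947). They were taken from 3225 genes with a range of at least 1 on the log2 scale, and with 6 libraries this is a description only. Mir5107 lies within Cd74 in the reference order, so its level of 6.6 to 174.9 RPKM is not told apart from reads of Cd74. The genes most like Ciita were Camk1g (0.9464), Snord45b (0.9429), Tmem91 (0.9377), Ephx1 (0.9305) and Ltbp4 (0.9193). Among the 10 genes themselves, H2-Aa and H2-Eb1 had a correlation of 0.986, Cd74 and H2-DMa 0.966, H2-DMb2 and H2-Oa 0.974, and Cd74 and H2-Aa 0.01.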

How the data were processed

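Polyadenylated RNA of 6 mouse libraries (3 groups of 2) was sequenced by the study. The deposited values are RPKM per RefSeq transcript, computed by the authors per the file headers and listed in steps of 0.1. TopHat, bedtools and the build mm9 appear in the submitters' processing notes. The sources used here do not give how shared or antisense reads were counted. The 26531 rows were summed by symbol to 22099 genes, leaving out 1 row without a gene. A spreadsheet had turned 40 symbols into numbers, and 39 of these were restored.

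A gene was tested if 2 or more libraries reached 1 RPKM, which 11345 did. The test was limma-trend (limma 3.58.1, R 4.3.3) on log2(RPKM + 1), 6 libraries in 1 fit of 3 group means, two-sided, Benjamini-Hochberg over all genes at 0.05. Fold changes on this scale understate those of low genes. With 2 samples a group, p-values measure only the spread between these samples. The fit without the replicate block was tested on simulated data, for the comparisons with wt only. The simulated libraries shared no replicate effect, so the test does not cover the block.

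Replicate numbers come from the labels, which name no shared batch. The deviations from group means of libraries that share a number correlated by 0.5 (wt and ZnF1 mutant), 0.754 (wt and ZnF4 mutant) and 0.715 (the 2 mutants). All were above 0.1, so the numbers were taken as pairs. The value with a replicate block is given for each class II gene whose call it changes, and for only part of the other named genes.

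The genes and the 17 lists (9 of pathways, 8 of cell type markers) were chosen with earlier results of these data known. Named pathway genes were those past 0.05 in any comparison, at most 5 a list by lowest p, or otherwise the gene with the highest mean. Marker genes were at most 4 a list by mean level, plus those at 0 in all libraries. Zbtb46, Rfx5, Cr2, Faim3 and Cst3 were named after their values were seen. Genes like Cd74 or Ciita were the top 5 by correlation among genes with a range of at least 1. A further 17 settings were tried (pseudocount, filter, scaling, libraries, block), plus 6 chosen after seeing the data (the block with 1 library left out). Promoters were searched with Python 3.11.15 and transcripts aligned with biopython 1.88. A comparison of protein sequences was not run.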

Additional observations from a re-analysis of the deposited data

How the results depend on the processing

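The replicate block raised the number of class II genes called from 0 to 4 (ZnF1 mutant against wt), from 0 to 2 (ZnF4 mutant against wt) and from 1 to 6 (ZnF4 mutant against ZnF1 mutant), and changed no other call among these genes. With the block and 1 library left out, a setting chosen after seeing the data, the counts were 0 to 3, 0 to 5 and 3 to 6, and the lowest counts in the comparisons with wt came without wt replicate 2. The single call between the mutants without the block, Cd74, was lost with no filter on low values (adjusted p 0.0702, count 0), at 5 RPKM or more (0.0516, 0), with the 4 libraries compared (0.0557, 0), without wt replicate 1 and ZnF1 mutant replicate 2 together (0.206, 0), and without each single library (0 to 0). The cause was not tested; the last 3 hold fewer libraries.

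Log2 differences of uncalled genes changed sign in some settings. Without wt replicate 1 and ZnF1 mutant replicate 2 together, H2-Ob was -0.1268 and H2-Eb2 -0.0614 (ZnF1 mutant against wt), H2-DMa 0.296 and Ctsb 0.2638 (ZnF4 mutant against wt), and H2-Ab1 -0.0337 (between the mutants). With quantile normalization H2-Eb2 was -0.1282 and Ctsb 0.0073. With 1 library left out, the ranges for ZnF1 mutant against wt were -0.2274 to 0.484 for H2-Ab1, -0.2094 to 0.9061 for H2-DMb2, -0.0286 to 0.195 for H2-Ob and -0.0935 to 0.1696 for H2-Eb2. For ZnF4 mutant against wt they were -0.4818 to 0.8148 for H2-Ab1, -0.4292 to 0.296 for H2-DMa and -0.2856 to 0.2638 for Ctsb. Between the mutants they were -3e-04 to 1.6691 for H2-Aa, -0.6101 to 0.6865 for H2-Ab1 and -4e-04 to 1.6078 for H2-Eb1. With the replicate block and 1 library left out, sign changes for ZnF1 mutant against wt were -0.3018 for H2-Ab1, -0.0813 and -0.0611 for H2-Ob, and -0.1095 and -0.0598 for H2-Eb2. For ZnF4 mutant against wt they were -0.268 for H2-Ab1, 0.0128 and 0.0031 for H2-DMa, -0.0603 and -0.1184 for Ctsl, and 0.1869 and 0.0765 for Ctsb. Between the mutants they were -0.4589 for H2-Aa, -0.3919 and -0.3963 for H2-Ab1, and -0.2614 and -0.0874 for H2-Eb1. The cause was not tested.

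No scaling moved the median of all genes by more than 0.1. The read depth is unknown, so no counting interval is given. The 0.1 step of the values limits Ciita, H2-Eb1, H2-DMb2 and H2-DMb1, whose lowest values were 0.1, 0.4, 0.5 and 0.8 RPKM. A fit without 1 library leaves 1 sample in that group, which is then assumed to vary like the other groups.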

Other observations

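Class I presentation genes, which load peptides from the cytosol, were taken as a list beside the class II family. The comparisons are given in the order ZnF1 mutant against wt, ZnF4 mutant against wt and ZnF4 mutant against ZnF1 mutant. In limma 0 of 15 tested genes passed in any of these, against 0%, 2.72% and 5.37% of all genes. At an unadjusted p below 0.05 there were 0, 2 and 0 of the 15, and 1281, 1329 and 2195 of all 11345 genes. With the replicate block 0, 4 and 4 genes were called, all lower in the ZnF4 mutant, against 7.92% of all genes lower in the ZnF4 mutant against wt and 19.2% against the ZnF1 mutant, and the list medians were -0.09, -0.45 and -0.3. Nlrc5, the coactivator of class I genes, was at 24.2 and 19.9 RPKM in wt, 17 and 13.5 in the ZnF1 mutant, and 8.1 and 12.9 in the ZnF4 mutant. It was lower in the ZnF4 mutant than in wt (log2 difference -1.03, adjusted p 0.162 in limma, 0.0493 with the block).

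Several cell type lists belong to no comparison of the class II family. The stromal and endothelial markers summed to 52.7 and 47.5 RPKM in wt, 169.7 and 74.3 in the ZnF1 mutant, and 38.4 and 25.9 in the ZnF4 mutant. The eosinophil, basophil and mast cell markers summed to 22.6 and 0.4, 0.7 and 10.7, and 5.2 and 9.9 RPKM in the same order. The T cell markers summed to at most 2.1 RPKM, and the mature B cell markers without Ciita to 499.1 and 232.2, 464.2 and 263.4, and 528 and 215.3 RPKM. Of 4 tested promoter inputs of Ciita in B and myeloid cells, 0 passed in limma in any comparison. The shares of all genes called in limma were 0% (ZnF1 mutant against wt), 2.72% (ZnF4 mutant against wt) and 5.37% (between the mutants). With the block 1 gene, Sfpi1, rose in the ZnF1 mutant against wt (adjusted p 0.0136), against 10.4% of all genes higher. That call, like all block calls of the comparison, needs wt replicate 2. Sfpi1 also fell with the block in the ZnF4 mutant against the ZnF1 mutant (adjusted p 0.0101), against 19.2% of all genes lower.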
